A study of Drosophila melanogaster with 31 samples.

Results

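The Doc family of non-LTR retrotransposons was represented by 6 consensus entries, DOC, DOC2, DOC3, DOC4, DOC5 and DOC6, among the 129 transposable element entries of the deposited tables. The entries were taken by name from the 5 element tables, in every condition that these tables cover. DOC4 was the shortest entry with 2791 bases, and the other entries ran from 4222 bases (DOC6) to 4793 bases (DOC2). A list of 31 other non-LTR entries served for comparison.

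Doc elements belong to the jockey group of retrotransposons, which lack long terminal repeats and copy their RNA back into DNA at a nicked target site. A complete element encodes an RNA-binding protein and a protein with endonuclease and reverse transcriptase activity, so its transcript is both messenger and template. In the *Drosophila* ovary, transposon transcripts are recognised in the nucleus by Piwi, an Argonaute protein loaded with small guide RNAs (piRNAs). Panx acts with Piwi to bring about heterochromatin at the transcribed locus, and Nxf2, a variant of the nuclear RNA export receptors, is a partner of Panx.

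The measurements came from ovarian somatic cells (OSC), a *Drosophila melanogaster* line of follicle cell origin kept at 26 degrees C. Poly(A)+ RNA was sequenced after siRNA knockdown (KD) of Nxf2 (2 samples), Panx (2), Piwi (1) or, as the control, EGFP (2). RNA bound to myc-tagged Nxf2 was measured by crosslinking and immunoprecipitation (CLIP), which compared the immunoprecipitate (IP) with size-matched input RNA (SMInput). It was done in UV-crosslinked cells (2 IP and 1 SMInput samples) and in cells without UV (2 and 1). It was also done in Piwi-KD cells (2 and 2) and EGFP-KD cells (2 and 2), where per the labels endogenous Nxf2 was depleted in both arms. CLIP of Piwi itself covered 2 IP samples and 1 SMInput sample, and Piwi-bound small RNA 1 sample. All cells were of 1 line, and the tables hold no genes, so cell type markers and the degree of each knockdown were not analysed here.

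The tables give 1 value per condition. No difference below has a replicate check, and intervals are exact 95% counting intervals unless called widened. They concern a ratio between libraries, a level in 1 library, or entries set against each other. Reads are not independent molecules, so intervals and the limit of 3 counts for an entry at 0 cover counting error only. Library totals ran from 8968998 to 9852335 reads in RNA sequencing and from 426679 (no-UV IP) to 2746550 (UV SMInput) in CLIP, and the small RNA library held 3187937. An entry was tested where its mean over a table was at least 1 RPKM (reads scaled by entry length in kb and by library total) or, in CLIP, 1 RPM (reads scaled by library total only). A higher call needed a ratio of 2 or more and an interval above 1, and a lower call the mirror of both. How reads that match several entries were assigned is not given in the sources used here, so how far reads of related Doc entries are divided between them is uncertain.

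In poly(A)+ RNA the family ranged from abundant to nearly silent entries. DOC6 had 87.0, 86.9 and 134 RPKM in Nxf2-KD, Panx-KD and Piwi-KD cells and 31.7 RPKM in EGFP-KD cells. DOC had 19.4, 19.5 and 32.3 RPKM in Nxf2-KD, Panx-KD and Piwi-KD cells and 10.1 RPKM in EGFP-KD cells. Both were lowest in the EGFP-KD library and highest in the Piwi-KD library. DOC2 had 5.34, 5.004 and 3.58 RPKM in Nxf2-KD, Panx-KD and Piwi-KD cells and 4.89 RPKM in EGFP-KD cells, and its lowest value was that of Piwi-KD cells. DOC3 had 1.67, 2.10 and 2.40 RPKM in Nxf2-KD, Panx-KD and Piwi-KD cells and 1.99 RPKM in EGFP-KD cells, the narrowest range of the 4 members tested. DOC5 had 1, 8 and 3 reads in Nxf2-KD, Panx-KD and Piwi-KD cells and 1 read in EGFP-KD cells. DOC4 had 0 reads in each of the 4 libraries, which allows a level of up to 0.118 RPKM in Nxf2-KD and Panx-KD cells, 0.120 RPKM in Piwi-KD cells and 0.109 RPKM in EGFP-KD cells. DOC4 and DOC5 were therefore not tested in RNA, and 4 of the 6 members passed the filter.

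The order of the levels per kb was the same in the 4 RNA libraries: DOC6, DOC, DOC2, DOC3, DOC5 and then DOC4. Each step from DOC6 down to DOC5 was larger than counting error. The last step, from DOC5 to DOC4, was so in the Panx-KD library only, where its interval began at 1.02. DOC6 exceeded DOC per kb by factors of 4.48 (4.15 to 4.84), 4.45 and 4.16 in Nxf2-KD, Panx-KD and Piwi-KD cells and 3.14 in EGFP-KD cells (2.83 to 3.50). Among all 129 entries DOC6 ranked 12 in Piwi-KD cells and 13 in EGFP-KD cells per kb, and DOC ranked 26 in Piwi-KD cells and 25 in EGFP-KD cells.

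**Figure D1:**
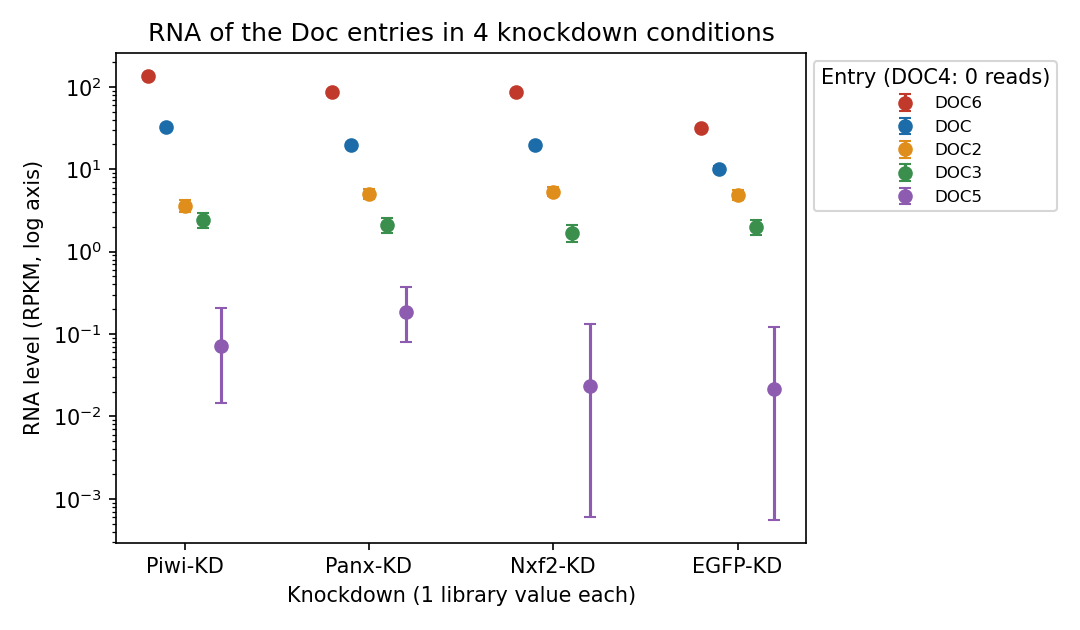
Level of each Doc entry in poly(A)+ RNA (RPKM, log axis) in Piwi-KD, Panx-KD, Nxf2-KD and EGFP-KD cells, with exact 95% counting intervals around 1 value per condition. DOC6 lies at 134 RPKM in Piwi-KD cells and 31.7 RPKM in EGFP-KD cells, while DOC3 stays between 1.67 and 2.40 RPKM; DOC4, with 0 reads, is not drawn.

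DOC6 RNA was higher after each of the 3 knockdowns, and DOC RNA passed the threshold after Piwi knockdown. After Nxf2 knockdown DOC6 had 3342 reads against 1317 in EGFP-KD cells, a ratio of 2.75 (2.58 to 2.93). It was the 1 member of 4 tested that was called, where 33.8% of all 65 tested entries were higher. DOC had 835 reads in Nxf2-KD cells and 469 in EGFP-KD cells. Its ratio of 1.93 (1.72 to 2.16) had an interval above 1 and stayed under the threshold. DOC2 had a ratio of 1.09 (0.907 to 1.32) and DOC3 of 0.839 (0.608 to 1.15). In these bulk samples, fewer cells with an RNA and less of it per cell cannot be told apart.

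After Panx knockdown the values were close to those after Nxf2 knockdown, with the EGFP-KD library shared by both comparisons. DOC6 had a ratio of 2.75 (2.58 to 2.93) and was again the 1 member called of 4 tested, beside 33.8% of all entries. DOC had a ratio of 1.94 (1.73 to 2.18), DOC2 of 1.02 (0.846 to 1.24) and DOC3 of 1.06 (0.782 to 1.43). In the direct comparison of Nxf2-KD with Panx-KD cells, DOC6 had a ratio of 1.001 (0.954 to 1.05) and DOC of 0.994 (0.903 to 1.10). DOC2 had a ratio of 1.07 (0.884 to 1.29) and DOC3 of 0.794 (0.575 to 1.09) between these knockdowns. None of the 4 was called, as none of the 65 entries was (0.00% in each direction).

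Piwi knockdown gave the largest ratios of DOC6 and DOC over EGFP-KD cells. DOC6 had 5088 reads in Piwi-KD cells and 1317 in EGFP-KD cells, a ratio of 4.24 (3.99 to 4.51). DOC had 1368 and 469 reads in Piwi-KD and EGFP-KD cells, a ratio of 3.20 (2.88 to 3.57). These 2 of the 4 tested members were higher, beside 43.1% of all entries, and none was lower, beside 3.08%. DOC2 had 154 reads in Piwi-KD cells and 231 in EGFP-KD cells. Its ratio of 0.732 (0.593 to 0.902) had an interval below 1 and stayed above the threshold for a lower call. Element reads made up 16.4% of the Piwi-KD library and 5.68% of the EGFP-KD library. With totals that leave them out, the DOC2 log2 ratio was -0.27 instead of -0.45, again without a call. DOC3 had a ratio of 1.20 (0.901 to 1.61).

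Set directly against the other knockdowns, Piwi-KD cells had 1.54 times the DOC6 reads of Nxf2-KD cells (1.48 to 1.61) and 1.55 times those of Panx-KD cells. For DOC these ratios were 1.66 (1.52 to 1.81) over Nxf2-KD cells and 1.65 over Panx-KD cells. DOC2 had ratios of 0.670 (0.543 to 0.825) over Nxf2-KD cells and 0.716 (0.579 to 0.884) over Panx-KD cells, with both intervals below 1. DOC3 had a ratio of 1.44 (1.05 to 1.97) over Nxf2-KD cells and 1.14 over Panx-KD cells. No member reached a ratio of 2 in either comparison, while 21.5% of all entries were higher in each.

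**Figure D2:**
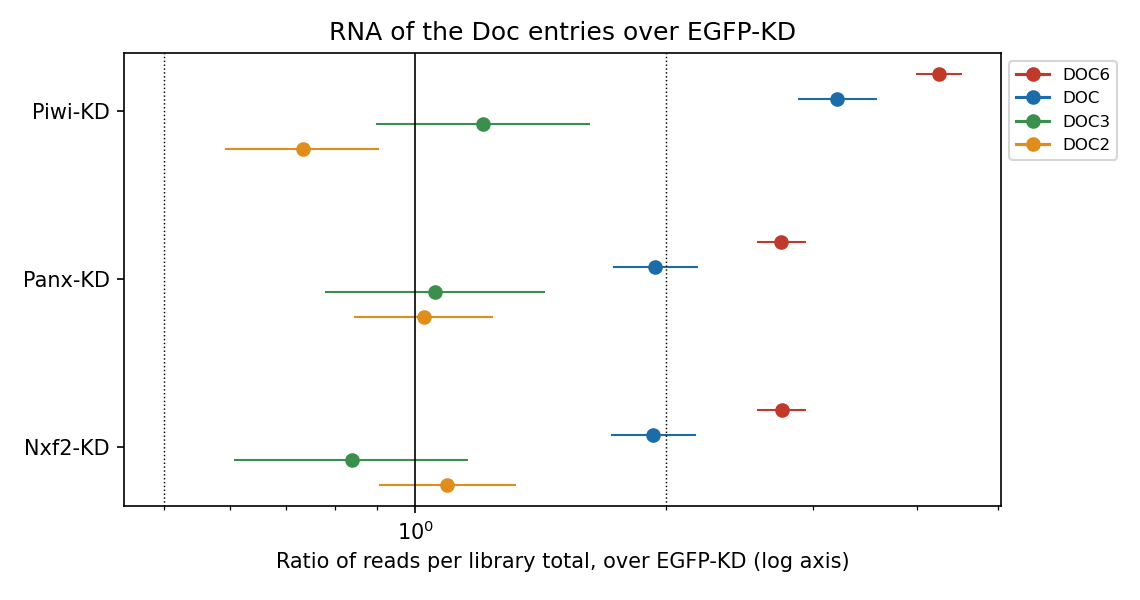
Ratio of reads per library total over EGFP-KD (log axis) for the 4 Doc entries tested in RNA, after Piwi, Panx and Nxf2 knockdown; lines are exact 95% counting intervals and dotted lines mark ratios of 2 and its inverse. DOC6 and DOC lie to the right of 1 in each knockdown, with 4.24 and 3.20 after Piwi knockdown, while DOC2 lies at 0.732 there and its intervals reach 1 in the other knockdowns.

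Members were then compared with each other within each comparison, by the ratio of their ratios, with intervals widened for the 15 possible pairs. Of 10 pairs with reads, the same 5 were called in each knockdown over EGFP-KD cells: DOC against DOC2, DOC against DOC3, and DOC6 against DOC, DOC2 and DOC3. After Piwi knockdown the DOC ratio was 4.38 times that of DOC2 (widened interval 3.09 to 6.22) and 0.755 times that of DOC6 (0.629 to 0.908). After Nxf2 knockdown the DOC ratio was 1.77 times that of DOC2 (1.27 to 2.45) and 0.702 times that of DOC6 (0.577 to 0.855). After Panx knockdown these values were 1.90 (1.36 to 2.64) and 0.706 (0.581 to 0.860). DOC2 against DOC3 was not called in any of these; after Piwi knockdown its widened interval of 0.355 to 1.04 included 1 and its unadjusted one of 0.423 to 0.873 did not. For Piwi-KD over Nxf2-KD cells 3 pairs were called, each holding DOC2, and for Piwi-KD over Panx-KD cells DOC2 against DOC and against DOC6.

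Among the other non-LTR entries, I, IVK, BS2 and FW were called in RNA. Of 9 tested, 3 were higher in Nxf2-KD cells, with ratios of 2.78 for I, 2.68 for IVK and 2.06 for BS2. In Panx-KD cells FW joined these 3 at a ratio of 2.199. In Piwi-KD cells the same 4 were called, and I reached 8.28, BS2 6.18, IVK 3.48 and FW 3.35. Of all 65 tested entries, 33.8%, 33.8% and 43.1% were higher in Nxf2-KD, Panx-KD and Piwi-KD cells. The I element and BS2 were also higher in Piwi-KD than in Nxf2-KD cells, by factors of 2.98 and 3.00. The median ratio of all tested entries was 1.39, 1.51 and 1.505 in Nxf2-KD, Panx-KD and Piwi-KD cells. When log2 ratios were set against these medians, whose log2 values were 0.48, 0.60 and 0.59, the DOC6 calls in Nxf2-KD and Panx-KD cells ended, at 0.98 and 0.86. On that scale DOC2 was called lower in Piwi-KD cells, at -1.04. With library totals that leave out element reads, DOC was called higher in Nxf2-KD and Panx-KD cells, at log2 ratios of 1.01 and 1.03. On these totals DOC2 was not called in Piwi-KD cells, at -0.27.

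Nxf2 CLIP in UV-crosslinked cells asked whether Doc RNA is recovered with Nxf2 beyond its input. DOC6 had 79.95 RPM in the UV IP (99 reads), 21.5 in the UV SMInput (59), 7.03 in the no-UV IP (3) and 3.60 in the no-UV SMInput (6). DOC had 13.7 RPM in the UV IP (17 reads), 2.18 in the UV SMInput (6), 9.37 in the no-UV IP (4) and 0.600 in the no-UV SMInput (1). Both were highest in the UV IP. DOC2 had 8 reads in the UV IP, 6 in the UV SMInput and 2 in each no-UV library. DOC3 had 4 and 7 reads in the UV IP and UV SMInput, and 0 and 1 in the no-UV IP and no-UV SMInput. DOC5 had 1 read in each SMInput and none in the IPs, and DOC4 had 0 in the 4 libraries, so neither was tested.

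Against SMInput, the UV IP held more DOC6 and DOC. The ratio was 3.72 for DOC6 (2.67 to 5.23) and 6.28 for DOC (2.36 to 19.5), and these 2 of 4 tested members were called beside 34.9% of all 63 tested entries. DOC2 had a ratio of 2.96 (0.900 to 10.3) and DOC3 of 1.27 (0.272 to 4.99), which at this depth could not be told from 1. The median over all entries was 1.89. The DOC call ended at a log2 ratio of 0.96 with 10 RPM added to both sides, and the DOC6 call at 0.98 relative to the median. Of the other 10 non-LTR entries tested, FW (16.6) and I (5.01) were higher, and R1 (0.358) and R2 (0.462), elements that insert into ribosomal DNA, were lower.

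DOC6 was higher with UV than without in both IP and input, as were element reads as a whole. They made up 1.07% of the UV SMInput and 0.102% of the no-UV SMInput. In the UV and no-UV IPs they made up 1.22% and 0.354%. Of these element reads, DOC6 held 0.201% in the UV SMInput and 0.353% in the no-UV SMInput. In the IPs its share was 0.654% with UV and 0.199% without. DOC6 was 11.4-fold higher in the UV IP than in the no-UV IP (3.78 to 56.1), the 1 member of 4 called, beside 33.3% of all entries. It was 5.97-fold higher in the UV SMInput than in the no-UV SMInput (2.58 to 16.9), again the 1 member called, beside 41.3% of all entries, and this call ended at a log2 ratio of 0.98 relative to the median. DOC had ratios of 1.46 (0.478 to 5.98) between the IPs and 3.64 (0.442 to 167) between the inputs. Without UV, the IP over its SMInput was 15.6 for DOC on 4 against 1 reads (1.55 to 769), a call that 15.9% of entries shared and that ended relative to the median and with 10 RPM added to both sides. The corresponding value was 1.95 for DOC6 (0.316 to 9.14) and 3.91 for DOC2 (0.283 to 53.9). With both inputs taken into account, the UV effect was 1.91 for DOC6 (0.387 to 12.1), 0.757 for DOC2 (0.0423 to 13.2) and 0.402 for DOC (0.00701 to 5.38). None of these was called, beside 3.17% of entries higher and 6.35% lower, and pairs of members were not tested in it. No pair was called in the other 4 comparisons of this experiment.

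In the EGFP-KD cells of the knockdown CLIP experiment, DOC had the largest ratio of Nxf2 IP over SMInput among the 4 tested members. DOC had 62.8 RPM in the EGFP-KD IP (68 reads) and 2.46 RPM in its SMInput (6 reads), a ratio of 25.5 (11.1 to 72.0). DOC6 had 293 RPM in the IP (317 reads) and 48.8 RPM in the SMInput (119), a ratio of 5.999 (4.84 to 7.47). DOC2 had 9 and 4 reads in IP and SMInput, a ratio of 5.07 (1.41 to 22.5). These 3 of 4 tested members were called higher, where 50.0% of all 78 tested entries were, and 3.85% were lower. DOC3, with 8 reads in the IP and 9 in the SMInput, had a ratio of 2.002 (0.672 to 5.85). The DOC ratio was 4.25 times that of DOC6 (widened interval 1.28 to 22.4) and 12.8 times that of DOC3 (1.67 to 112), the 2 pairs called of 10. DOC could not be told from DOC2, at 5.04 times (widened interval 0.360 to 54.0). The DOC2 call ended at a log2 ratio of 0.65 with 10 RPM added to both sides and at 0.85 relative to the median of all entries. The header of the EGFP-KD IP column does not name Nxf2, so depletion of endogenous Nxf2 there rests on the labels.

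Among the other 17 non-LTR entries tested, FW (9.42), I (7.44) and IVK (2.78) were higher in the EGFP-KD IP than in its SMInput, and R2 (0.256) was lower. The median over all entries with a ratio was 2.82, above the values of IVK and DOC3. DOC ranked 5 among the 77 entries with a ratio, DOC6 26, DOC2 29 and DOC3 52.

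**Figure D3:**
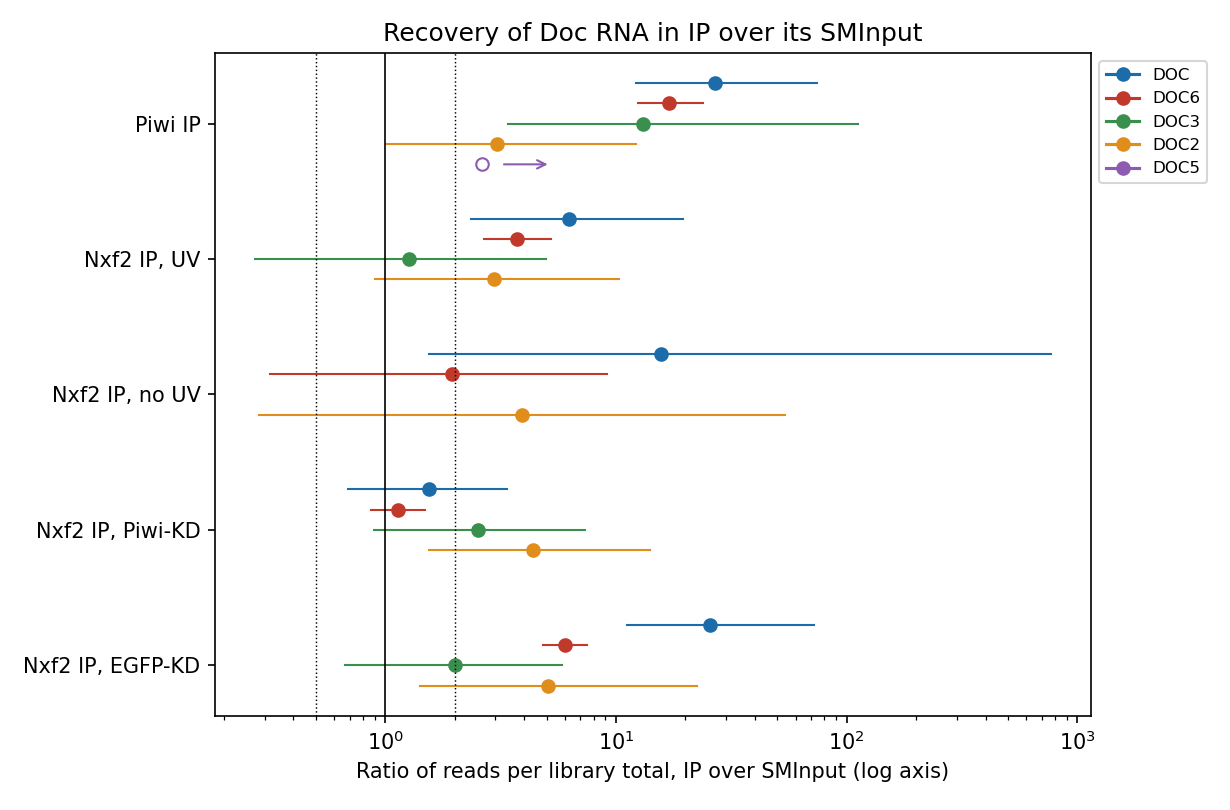
Ratio of reads per library total in IP over SMInput (log axis) for Doc entries in Piwi CLIP and in 4 settings of Nxf2 CLIP; lines are exact 95% counting intervals, dotted lines mark ratios of 2 and its inverse, and the open circle with an arrow is DOC5 at the floor of 3 input counts. DOC lies at 27.0 in the Piwi IP and 25.5 in the Nxf2 IP of EGFP-KD cells, and at 1.54 in the Nxf2 IP of Piwi-KD cells.

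DOC and DOC6 were lower in the Nxf2 IP of Piwi-KD cells than in that of EGFP-KD cells. DOC had 11.7 RPM in the Piwi-KD IP (13 reads) and 62.8 RPM in the EGFP-KD IP (68 reads), a ratio of 0.186 (0.0945 to 0.341). DOC6 had 79.3 RPM in the Piwi-KD IP (88 reads) and 293 RPM in the EGFP-KD IP (317 reads), a ratio of 0.271 (0.211 to 0.344). These 2 of 4 tested members were lower, beside 17.9% of all entries, and none was higher, beside 8.97%. DOC2 had 13 and 9 reads in the Piwi-KD and EGFP-KD IPs, a ratio of 1.41 (0.557 to 3.73). DOC3 had 10 and 8 reads there, a ratio of 1.22 (0.433 to 3.56). The IP ratio of DOC differed from that of DOC2 (0.132 times, widened interval 0.0234 to 0.690) and DOC3 (0.153 times, 0.0242 to 0.915), and DOC2 differed from DOC6 (5.20 times, 1.28 to 23.4). DOC and DOC6 could not be told apart, with a widened interval of 0.229 to 1.77.

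In the inputs DOC was higher in Piwi-KD cells. It had 17 reads in the Piwi-KD SMInput and 6 in the EGFP-KD SMInput, a ratio of 3.09 (1.16 to 9.56), and was the 1 member called, beside 23.1% of all entries. That call ended relative to the median and, at a log2 ratio of 0.50, with 10 RPM added to both sides. DOC6 had 156 and 119 reads in the Piwi-KD and EGFP-KD inputs, a ratio of 1.43 (1.12 to 1.83). DOC2 (1.63, 0.388 to 7.87) and DOC3 (0.969, 0.325 to 2.83) had intervals that included 1.

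Within Piwi-KD cells, DOC and DOC6 were no longer called in the Nxf2 IP over its SMInput. DOC had a ratio of 1.54 (0.689 to 3.37) and DOC6 of 1.14 (0.866 to 1.49). DOC2, with 13 reads in the IP and 6 in the SMInput, had a ratio of 4.37 (1.55 to 14.02) and was the 1 member called, beside 33.3% of all entries higher and 3.85% lower; the call ended relative to the median and with 10 RPM added to both sides. DOC3 had a ratio of 2.52 (0.896 to 7.35). DOC4 had 1 read in the Piwi-KD SMInput and none in the other 3 libraries. DOC5 had 1 read in the Piwi-KD SMInput and 1 in the EGFP-KD IP, and neither entry was tested in this experiment.

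The Piwi-KD effect, defined as IP over SMInput in Piwi-KD cells divided by IP over SMInput in EGFP-KD cells, was 0.0604 for DOC (0.0168 to 0.204). It was 0.190 for DOC6 (0.134 to 0.269). These 2 of 4 tested members were lower, beside 29.5% of all 78 entries lower and 2.56% higher, and the median over all entries with a value was 0.525. DOC2 had an effect of 0.862 (0.137 to 4.98) and DOC3 of 1.26 (0.275 to 5.82), both with intervals that span 1. Differences between members in this effect were not tested. Of the other 17 non-LTR entries tested, I (0.113), DMCR1A (0.244) and FW (0.264) were lower.

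**Figure D4:**
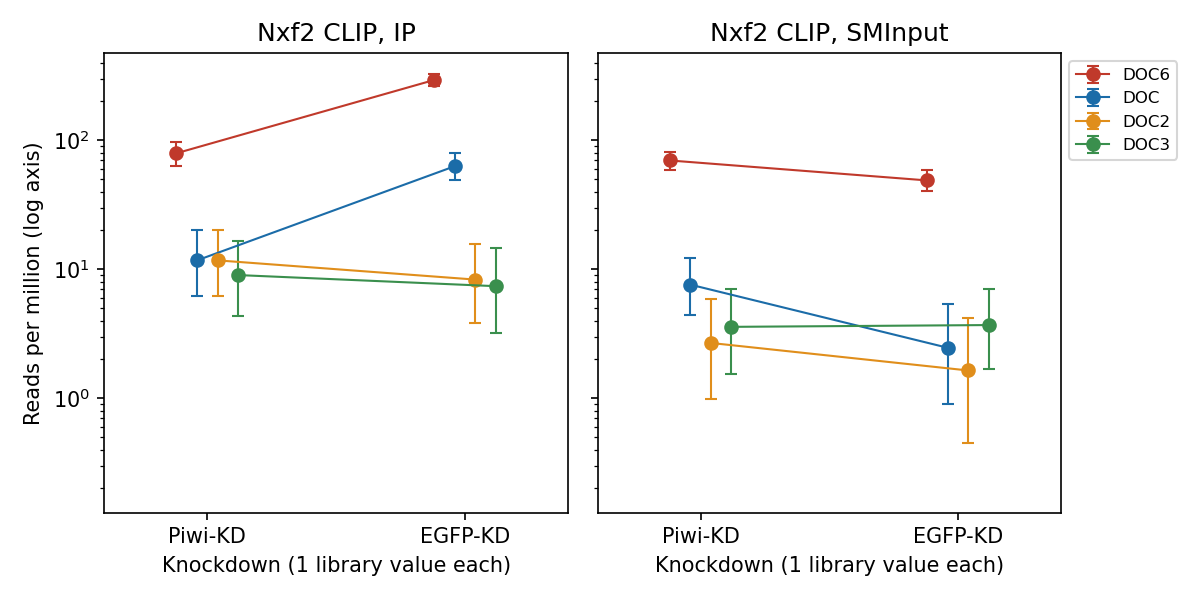
Level (RPM, log axis) of 4 Doc entries in the Nxf2 IP (left) and its SMInput (right) of Piwi-KD and EGFP-KD cells, with exact 95% counting intervals around 1 value per condition. DOC lies at 11.7 RPM in the Piwi-KD IP and 62.8 RPM in the EGFP-KD IP, while DOC2 and DOC3 have overlapping intervals between the conditions in both panels.

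In CLIP of Piwi itself, DOC, DOC6, DOC3 and DOC2, the 4 members with SMInput reads, were called above input. With DOC5, called at the floor on 0 input reads, 5 of the 6 tested members were called. Of all 98 tested entries 57.1% were higher, calls at the floor included, while 3.06% were lower. DOC6 had 1637 RPM in the Piwi IP (1174 reads) and 96.2 RPM in its SMInput (42), a ratio of 17.0 (12.5 to 23.7). DOC had 371 RPM in the IP (266 reads) and 13.7 RPM in the SMInput (6), a ratio of 27.0 (12.2 to 74.2). DOC3 had 60.0 RPM in the IP (43 reads) and 4.58 RPM in the SMInput (2), a ratio of 13.1 (3.41 to 111). DOC3 was thus called with Piwi, in contrast to its intervals including 1 in the Nxf2 IPs; the difference between the proteins was not tested. DOC2 had 20 and 4 reads in IP and SMInput, a ratio of 3.04 (1.02 to 12.2), which was the median of all entries. DOC5, with 13 reads in the IP and 0 in the SMInput, had a ratio of 2.64 at a floor of 3 input counts, and its interval began at 1.85. DOC4 had 4 reads in the IP and 0 in the SMInput, and was not called. Both passed the filter on low values through the IP alone, so the DOC5 value is given as a description. The DOC2 call ended at a log2 ratio of 0.98 with 10 RPM added to both sides, and it also ended relative to the median of all entries.

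Among the 14 pairs of members with reads in this experiment, none was called with widened intervals. DOC against DOC6 had a ratio of ratios of 1.59 (widened interval 0.471 to 8.39), and DOC against DOC2 one of 8.87 (0.719 to 80.5). Of the other 22 non-LTR entries tested, 6 were higher, beside 57.1% of all 98 tested entries. I had a ratio of 37.6, FW of 10.2 and IVK of 4.18. G2, JOCKEY2 and Jockey had 0 input reads and passed the filter through the IP alone. Their ratios at the floor were 2.43, 3.25 and 3.04, with intervals that began at 1.69, 2.35 and 2.18. R1 (0.304), DMRT1B (0.243) and R2 (0.203) were lower.

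Piwi-bound small RNA was found for all 6 members, in amounts that differed widely per kb. DOC had 29975 reads, or 9403 RPM, and 1990 RPM per kb of entry, at rank 12 of 129 entries. DOC6 had 7708 reads, 2418 RPM and 573 RPM per kb, at rank 33. DOC4 had 303 reads and 34.1 RPM per kb, DOC2 374 reads and 24.5, DOC5 246 reads and 16.5, and DOC3 160 reads and 10.6 RPM per kb. The lower 4 ranked 57, 63, 71 and 78 per kb. Each step in this order was larger than counting error, the smallest being DOC4 over DOC2 at 1.39 (1.19 to 1.62). The table does not separate the strands, so small RNA complementary to Doc transcripts and small RNA of the same strand are counted together.

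DOC and DOC6 stood in opposite order in small RNA and in long RNA. DOC6 over DOC per kb was 0.288 in the small RNA library (0.281 to 0.295). In the 14 RNA and CLIP conditions it was above 1 in 13, with an interval above 1 in 12. The exceptions were the no-UV IP, at 0.839 on 3 against 4 reads (0.123 to 4.96), and the no-UV SMInput, at 6.71 on 6 against 1 reads (0.815 to 309). Small RNA per kb divided by the RPKM in EGFP-KD cells was 198 for DOC, 18.1 for DOC6, 5.32 for DOC3 and 5.004 for DOC2, a set of values across tables that were normalized separately. DOC4 had 303 small RNA reads and 0 RNA reads in any RNA library.

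**Figure D5:**
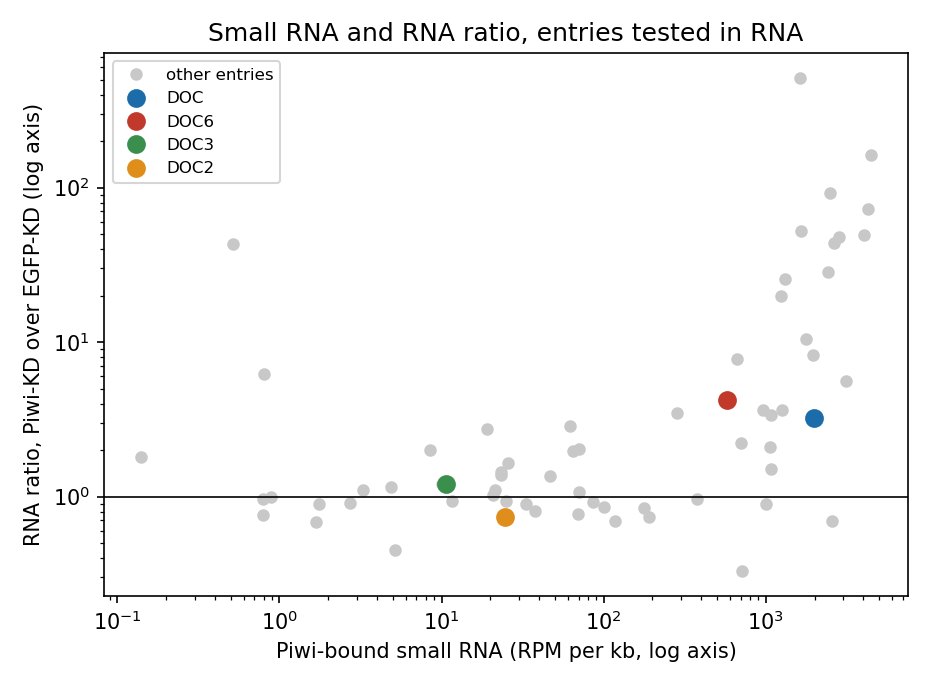
Piwi-bound small RNA (RPM per kb, log axis) against the RNA ratio of Piwi-KD over EGFP-KD (log axis) for the 65 entries tested in RNA; each point is an entry, the 4 tested Doc entries are coloured, and the line marks a ratio of 1. DOC and DOC6 lie at 1990 and 573 RPM per kb with ratios of 3.20 and 4.24, and DOC2 and DOC3 at 24.5 and 10.6 RPM per kb with ratios of 0.732 and 1.20.

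The members with the most small RNA were also those with called RNA ratios in Piwi-KD cells. Across the 65 entries tested in RNA, log2 small RNA per kb and the log2 ratio of Piwi-KD over EGFP-KD had Pearson r = 0.527 and Spearman rho = 0.536. Across 92 entries, log2 small RNA per kb and the log2 Piwi IP over SMInput had r = 0.558 and rho = 0.551. These describe entries that share their libraries and are not independent replicates. Several entries with more small RNA per kb than DOC6 had low ratios in Piwi-KD cells, such as GYPSY4 (2550 RPM per kb, ratio 0.698) and HMSBEAGLE (998 RPM per kb, ratio 0.901), chosen after their values were seen.

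Over 6 comparisons together, the entries nearest to each member were sought outside the Doc family. The 3 named for each member lay closer to it than any other Doc entry. They were the nearest of a far larger pool than the other tested Doc entries, which alone favours this order. It therefore does not show whether Doc entries resemble each other less than they resemble other entries. The measure was the Euclidean distance between log2 ratios, with a pseudocount of 1, of the 3 knockdowns in RNA, the UV and EGFP-KD Nxf2 IPs over SMInput and the Piwi IP over SMInput. It covered 52 entries tested in all 6, DOC, DOC2, DOC3 and DOC6 among them. Nearest to DOC6 were ROO (0.59), STALKER2 (1.25) and I (1.53), the first pair being LTR retrotransposons. Nearest to DOC were the LTR retrotransposons BLASTOPIA (1.30), MDG3 (1.80) and IDEFIX (1.91), and DOC6 lay at 1.99 from DOC. DOC2 lay nearest to NOMAD (0.88), TART_B1 (1.25) and GYPSY12 (1.33), and DOC3 to INVADER2 (0.50), TRANSPAC (1.22) and Jockey (1.36). Within the family the distances were 4.66 between DOC and DOC2, 4.51 between DOC and DOC3, 4.13 between DOC2 and DOC6, 3.72 between DOC3 and DOC6 and 2.46 between DOC2 and DOC3. With a pseudocount of 0.1 the third neighbour of DOC was FW, that of DOC2 DMTOM1 and that of DOC3 BATUMI, and the 3 of DOC6 were the same.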

How the data were processed

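The deposited tables hold raw read counts per consensus entry, per the file headers. The authors' RPKM (RNA) and RPM (CLIP, small RNA) values are these counts scaled by a library total, and for RPKM also by entry length, per the file headers; the total was recovered from counts and normalized values. The Nxf2-KD normalized column names no unit, but its values follow the other RPKM columns as deposited. Per the submitters' processing notes, TopHat2 2.0.14, Bowtie2 2.2.9, DESeq2 and Bowtie 1.0.1 were used on RNA, Bowtie, STAR, cutadapt and SAMtools on CLIP, and Bowtie and cutadapt on small RNA, with the dm3 build. Their roles, the treatment of reads matching several entries and any pooling of replicates are not given in the sources used here.

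Ratios of reads per library total were computed for all 129 entries with exact Clopper-Pearson intervals, and ratios of ratios with exact conditional odds-ratio intervals (Python 3.11.15, SciPy 1.17.1, NumPy 2.4.6, pandas 2.3.3). A side with 0 reads took a floor of 3 counts. With 1 column per condition, the planned replicate test with edgeR could not be run. The procedure was tested on simulated data. These were drawn with only the counting error that the intervals assume, so the test does not cover spread between replicates. All 6 members are named, other non-LTR entries where called, and the 3 nearest entries outside the family by distance. Members and lists were chosen with earlier results of these data known. Alternatives were no filter, a mean of at least 10, added pseudocounts of 0.1 and 10, median centring and totals without element reads. H3K9me3 peaks carry no element names and were not used here.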

Additional observations from a re-analysis of the deposited data

Results flagged for a closer look

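The recovery of DOC and DOC6 with Nxf2 differed between knockdowns. IP over SMInput of DOC was 1.54 in Piwi-KD cells and 25.5 in EGFP-KD cells, so that the ratio of these ratios was 0.0604 (0.0168 to 0.204). For DOC6 the values were 1.14 in Piwi-KD cells and 5.999 in EGFP-KD cells, and the ratio of ratios was 0.190 (0.134 to 0.269). Of all 78 tested entries 29.5% were lower in this ratio of ratios, and the median over entries with a value was 0.525. The DOC value rests on 6 reads in the EGFP-KD SMInput. Both members were assessed by counting intervals over 1 value per condition, with no replicate check.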

How the results depend on the processing

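Of 371 alternatives to 68 log2 ratios of members, 352 kept the call and 24 turned the sign, 16 of them by median centring. The 352 include 68 alternatives without a filter and 31 with a mean of at least 10. Both kinds reuse the same ratio and interval, so these calls could not change. Of the 24 that turned the sign, 23 concern values called in neither setting. The other is DOC5 in the Piwi IP over SMInput, at -0.21 with median centring, a value at the floor on 0 input reads that shows no direction. Median centring left 0 members higher in Nxf2-KD RNA, Panx-KD RNA, the no-UV IP over SMInput, UV over no-UV SMInput, the Piwi-KD IP over SMInput and Piwi-KD over EGFP-KD SMInput, 1 in the UV IP over SMInput and 3 in the Piwi IP over SMInput, and made 1 lower in Piwi-KD RNA. With totals without element reads, 2 members were higher in Nxf2-KD RNA and 2 in Panx-KD RNA, since DOC passed the threshold at log2 ratios of 1.01 and 1.03. Without a filter 2 were higher in Panx-KD RNA and 1 lower in Nxf2-KD against Panx-KD RNA, through DOC5 on 8 reads in Panx-KD cells. A mean of at least 10 and a pseudocount of 10 each left 1 member higher in the UV IP over SMInput and 0 in the no-UV and Piwi-KD IPs over SMInput; the pseudocount also left 0 in Piwi-KD over EGFP-KD SMInput. Pairs of members called at unadjusted 95% intervals were 7 in Panx-KD and 6 in Piwi-KD over EGFP-KD RNA, 4 in the Piwi-KD over the EGFP-KD IP, 3 in Nxf2-KD against Panx-KD RNA, 6 in Piwi-KD against Panx-KD RNA, 1 in the UV against the no-UV IP, 1 in the Piwi-KD IP over SMInput and 2 in the Piwi IP over SMInput. The cause of these changes was not tested, except where fewer or more entries were tested by construction. The DOC and DOC6 calls in Piwi-KD RNA, in the EGFP-KD IP over SMInput and in the Piwi-KD effect were kept under every alternative run for them.

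No paired analysis was possible because the columns carry no replicate numbers. Leaving out single replicates was not run, since each condition has 1 column. Depth limits DOC2 and DOC3 in the Nxf2 IPs, where intervals span 10-fold or more in places, and DOC4 and DOC5 in RNA and CLIP.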

Other observations

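The same contrast could be read in experiments that share no library. For DOC6, Piwi-KD over EGFP-KD was 4.24 in poly(A)+ RNA (3.99 to 4.51) and 1.43 in the SMInput of the knockdown CLIP experiment (1.12 to 1.83), with intervals that do not overlap. For DOC the same values were 3.20 (2.88 to 3.57) and 3.09 (1.16 to 9.56), with overlapping intervals. The SMInput holds size-selected RNA of cells that, per the labels, were also depleted of endogenous Nxf2. The difference between the experiments was not tested. DOC was enriched with Nxf2 over SMInput by 25.5 in EGFP-KD cells (11.1 to 72.0) and by 6.28 in UV-crosslinked cells without knockdown labels (2.36 to 19.5). For DOC6 these values were 5.999 (4.84 to 7.47) and 3.72 (2.67 to 5.23), and the intervals overlap for both entries. Overlap does not show that the ratios are equal, and the difference between these 2 CLIP experiments was not tested either.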
